A study of Mus musculus with 16 samples.

Results

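The GABA-A receptor subunit genes Gabra2, Gabra3, Gabra4, Gabra5, Gabrb1, Gabrb2 and Gabrd were followed in the hippocampus of 16 mice of a learned helplessness experiment. Members were all transcripts that carry 1 of these 7 gene names, which gave 24 isoforms of 80137 transcripts. The 24 isoforms belong to 6 of the 7 genes, of 18287 gene names in all, and Gabra3 was not analysed here. Levels are given in FPKM, a fragment count per transcript corrected for transcript length and library size. The level of a gene is the summed FPKM of its isoforms.

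GABA-A receptors are chloride channels built from several subunits around a central pore, and they carry most of the fast inhibition in the brain. The alpha and beta subunits form the binding sites for GABA, while the sites for classical benzodiazepines lie between an alpha and a gamma subunit. In the hippocampus, receptors with the alpha5 subunit are abundant on pyramidal cells, and receptors with alpha4 and delta sit mainly outside synapses on dentate granule cells, where they give a steady, tonic inhibition.

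All mice were wild type C57BL/6 males of 3 months. Homecage (HC) mice stayed in their cages, with neither shocks nor trials. Control (Ctrl) mice were spared the inescapable shocks but went through 30 trials of escapable shocks of 0.4 mA. The remaining mice had 180 inescapable shocks of 0.4 mA on the day before the same 30 trials. They were separated by their escape failures and latencies alone, into mice that failed to escape (learned helpless, LH) and mice that kept escaping (non-learned helpless, NLH). Each group held 4 mice, with 1 library per mouse made from both hippocampi of that mouse. In such bulk tissue, fewer cells of a type and less RNA per cell cannot be told apart.

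Depth was estimated at 20180000 to 38260000 fragments per mouse. Between 4872 and 7352 transcripts were listed at an FPKM of 0 in 14 of the mice, against 10846 in LH replicate 3 and 15504 in LH replicate 4. These libraries stand apart, and LH differences of the genes and main isoforms below were also computed without them. Summed FPKM of all transcripts ran from 120208 to 158004 per mouse, and median-ratio size factors from 0.822 in LH replicate 4 to 1.2 in LH replicate 2. Marker genes of dentate granule cells (5 of 5 listed genes measured) summed to between 23.3 and 37.1 FPKM and those of CA pyramidal cells (6 of 6) to between 33.96 and 73.4 in each mouse. Markers of interneurons (6 of 6) summed to 101.9 to 158.8, of oligodendrocytes (4 of 5) to 250.0 to 481.9, of striatum (6 of 6) to 7.53 to 18.3 and of thalamus (5 of 5) to 6.60 to 23.1. Markers of choroid plexus (5 of 5) ranged most widely, from 1.12 to 76.3, with Ttr, Folr1 and Aqp1 at or near 0 in some mice. In LH replicate 4 the striatal marker Drd2 was listed at 0 and the CA1 marker Wfs1 at 0.00225. No gene of these lists passed the limma threshold in any of the 4 comparisons. At an unadjusted p of 0.05, the CA pyramidal list had 1 gene lower in LH than in NLH, and the interneuron list had 1 gene higher in Ctrl vs. HC and another in LH vs. Ctrl. The striatum list had 2 genes higher in LH vs. Ctrl, with 1 higher for LH against NLH. The share of all genes past that threshold was 2.7% in Ctrl vs. HC, 11.5% for LH against Ctrl and 7.54% for LH against NLH. The thalamic markers summed to 23.1 in LH replicate 1, with Prkcd at 10.3 and Tcf7l2 at 3.59, against 6.60 to 11.4 in all other mice. LH replicate 1 also held the highest sums of Gabra4, Gabrb2 and Gabrd given below. Their part in the results below was not tested.

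The genes of 3 subunits lie in 1 stretch of chromosome 5 (positions from GENCODE vM21 on mm10, the same assembly as GRCm38). Gabra2 (ENSMUSG00000000560, chr5:70957597-71095849, minus strand) is separated from Gabra4 (ENSMUSG00000029211, chr5:71569749-71658308, minus strand) by 473899 bases. Gabrb1 (ENSMUSG00000029212, chr5:71658113-72149037, plus strand) starts inside the first exon of Gabra4 on the opposite strand, so that both genes overlap by 196 bases. The sources used here do not say that the libraries kept the strand, and reads from these 196 bases cannot be assigned to either gene without it. Gabra5 (ENSMUSG00000055078) lies at chr7:57407672-57510059 on the minus strand, Gabrb2 (ENSMUSG00000007653) at chr11:42419757-42629028 on the plus strand and Gabrd (ENSMUSG00000029054) at chr4:155384980-155398112 on the minus strand.

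The alpha subunits measured here differ in a residue that is known to decide whether classical benzodiazepines can bind, a histidine in alpha2 and alpha5 and an arginine in alpha4. The stretches of coding sequence around that codon are shown because they separate these genes by function. They were read from the mm10 transcripts of GENCODE vM21, 5′ to 3′ on the coding (minus) strand, with the codon in capitals. Counted from the start codon, it is codon 129 of Gabra2-203, 135 of Gabra4-201 and 136 of Gabra5-203. Their positions are chr5:71014493-71014519, chr5:71641140-71641166 and chr7:57488879-57488905, each inside a single coding exon.
Gabra2: gataccttctttCACaatgggaaaaag
Gabra4: gatactttcttcAGGaatggaaagaaa
Gabra5: gacacgttcttcCACaacggcaagaag

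3 further stretches are shown because they separate the coding sequences of the isoforms described below. The first is an exon of Gabrb2 at chr11:42602115-42602228 (plus strand, 114 bases, all coding) that Gabrb2-205 (ENSMUST00000192403.1) contains and Gabrb2-201 (ENSMUST00000007797.9) lacks. Its length is a multiple of 3, so it keeps the reading frame, and the coding sequence is 1536 bases with it and 1422 without. It is the only difference between the coding sequences of these isoforms, and it makes the long form of the beta2 subunit. The second is the 3′ end of the first exon of Gabra4 at chr5:71657724-71657791 (minus strand, 68 bases, coding) that Gabra4-201 (ENSMUST00000031121.9) contains and Gabra4-202 (ENSMUST00000197994.1) lacks. The third is at chr5:71014576-71014636 (minus strand, 61 bases, coding), the 5′ part of an exon that Gabra2-203 (ENSMUST00000197284.4) contains and Gabra2-204 (ENSMUST00000198625.4) lacks. Gabra4-201 and Gabra2-203 also extend beyond the shorter isoforms at their ends, with 4108 against 1765 and 5852 against 3867 bases in all, so their FPKM does not rest on these stretches alone. Neither 68 nor 61 is a multiple of 3, and GENCODE types both shorter isoforms as targets of nonsense-mediated decay, the pathway that degrades RNAs with an early stop codon.
Gabrb2 exon of Gabrb2-205: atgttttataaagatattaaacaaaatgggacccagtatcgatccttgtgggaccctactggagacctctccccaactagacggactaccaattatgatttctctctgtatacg
Gabra4 stretch of Gabra4-201: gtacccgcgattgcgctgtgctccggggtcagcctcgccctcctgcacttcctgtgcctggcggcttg
Gabra2 stretch of Gabra2-203: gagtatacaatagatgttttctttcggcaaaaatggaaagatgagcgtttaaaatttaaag

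The means over 16 mice of the sums of named transcripts fell into 3 ranges of FPKM. Gabra5 was highest with 33.4 ± 3.16 (SD over 16 mice), followed by Gabrb2 with 29.7 ± 2.23 and Gabrb1 with 26.4 ± 4.32. Gabra4 with 12.0 ± 1.39 and Gabra2 with 11.1 ± 2.54 formed the middle range, and Gabrd was lowest with 2.85 ± 0.341. These are length-scaled levels of the named transcripts, and the order depends on what is summed. With all transcripts of the assembled locus, Gabrb1 (36.35) lay above Gabra5 (34.5) and Gabra2 (20.1) above Gabra4 (17.7). With coding transcripts alone, Gabra2 was at 2.85, next to Gabrd at 2.28. On the sums of named transcripts, Gabra5 lay above Gabrb2 in 14 of 16 mice and Gabrb2 above Gabrb1 in 15, but the ranges over mice overlapped in both pairs. Gabra4 lay above Gabra2 in 11 of 16 mice, and these neighbours did not differ beyond their spread. The steps from Gabrb1 to Gabra4 and from Gabra2 to Gabrd had no overlap in any mouse. The top and middle ranges did overlap through Gabra2, which was at 17.7 in LH replicate 2, above Gabrb1 at 16.1 in LH replicate 4.

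Gabra2, the alpha2 subunit that is common at synapses on the start of the axon, was lowest in HC mice. Its summed FPKM was 9.54, 8.12, 7.97 and 9.48 in HC replicates 1 to 4 and 10.4, 10.4, 11.5 and 12.2 in Ctrl replicates 1 to 4. It was 12.1, 11.04, 12.1 and 9.15 in NLH and 15.1, 17.7, 11.5 and 8.71 in LH replicates 1 to 4. All Ctrl mice lay above all HC mice. The LH mice held both the highest value and, in LH replicate 4, a value within the HC range.

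Gabra4, the alpha4 subunit of tonic receptors, varied less. Its summed FPKM was 12.5, 12.4, 10.1 and 11.8 in HC replicates 1 to 4 and 10.1, 10.6, 11.8 and 11.7 in Ctrl. It was 11.9, 12.3, 14.0 and 10.4 in NLH and 14.6, 12.8, 14.1 and 11.1 in LH. The LH replicates 1 to 3 lay above every Ctrl mouse, and LH replicate 4 lay among them.

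Gabra5, the alpha5 subunit of extrasynaptic receptors on pyramidal cells, had nearly the same mean in every group. Its summed FPKM was 32.2, 34.4, 31.7 and 33.1 in HC replicates 1 to 4 and 33.5, 33.4, 35.1 and 31.2 in Ctrl. It was 31.0, 37.9, 36.1 and 30.3 in NLH and 36.7, 39.2, 32.3 and 26.5 in LH. The LH mice enclosed all other mice, from the lowest in LH replicate 4 to the highest in LH replicate 2.

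Gabrb1, a beta subunit, was spread most widely in LH. Its summed FPKM was 24.5, 26.6, 22.1 and 26.9 in HC replicates 1 to 4 and 23.7, 25.0, 26.9 and 25.4 in Ctrl. It was 24.9, 29.5, 28.1 and 26.6 in NLH and 28.5, 36.8, 29.9 and 16.1 in LH. As with Gabra5, LH replicate 2 was the highest and LH replicate 4 the lowest of the 16 mice. On the scale of log2(FPKM + 0.1) the SD between the 4 LH mice was 0.51 for Gabrb1, against 0.08 in Ctrl.

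Gabrb2, a beta subunit of many synaptic receptors, varied least relative to its mean over the 16 mice. Its summed FPKM was 28.6, 28.1, 27.5 and 28.9 in HC replicates 1 to 4 and 29.6, 27.8, 30.6 and 27.0 in Ctrl. It was 31.7, 31.4, 31.8 and 27.0 in NLH and 33.8, 33.5, 30.1 and 27.9 in LH. In NLH, replicates 1 to 3 lay close together and replicate 4 lay below them.

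Gabrd, the delta subunit that joins alpha4 in tonic receptors of granule cells, was low in every mouse. Its summed FPKM was 3.03, 3.00, 3.09 and 2.70 in HC replicates 1 to 4 and 3.19, 2.42, 2.44 and 2.78 in Ctrl. It was 2.46, 2.60, 3.26 and 2.91 in NLH and 3.54, 2.75, 3.08 and 2.39 in LH. The 4 groups overlapped.

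**Figure D1:**
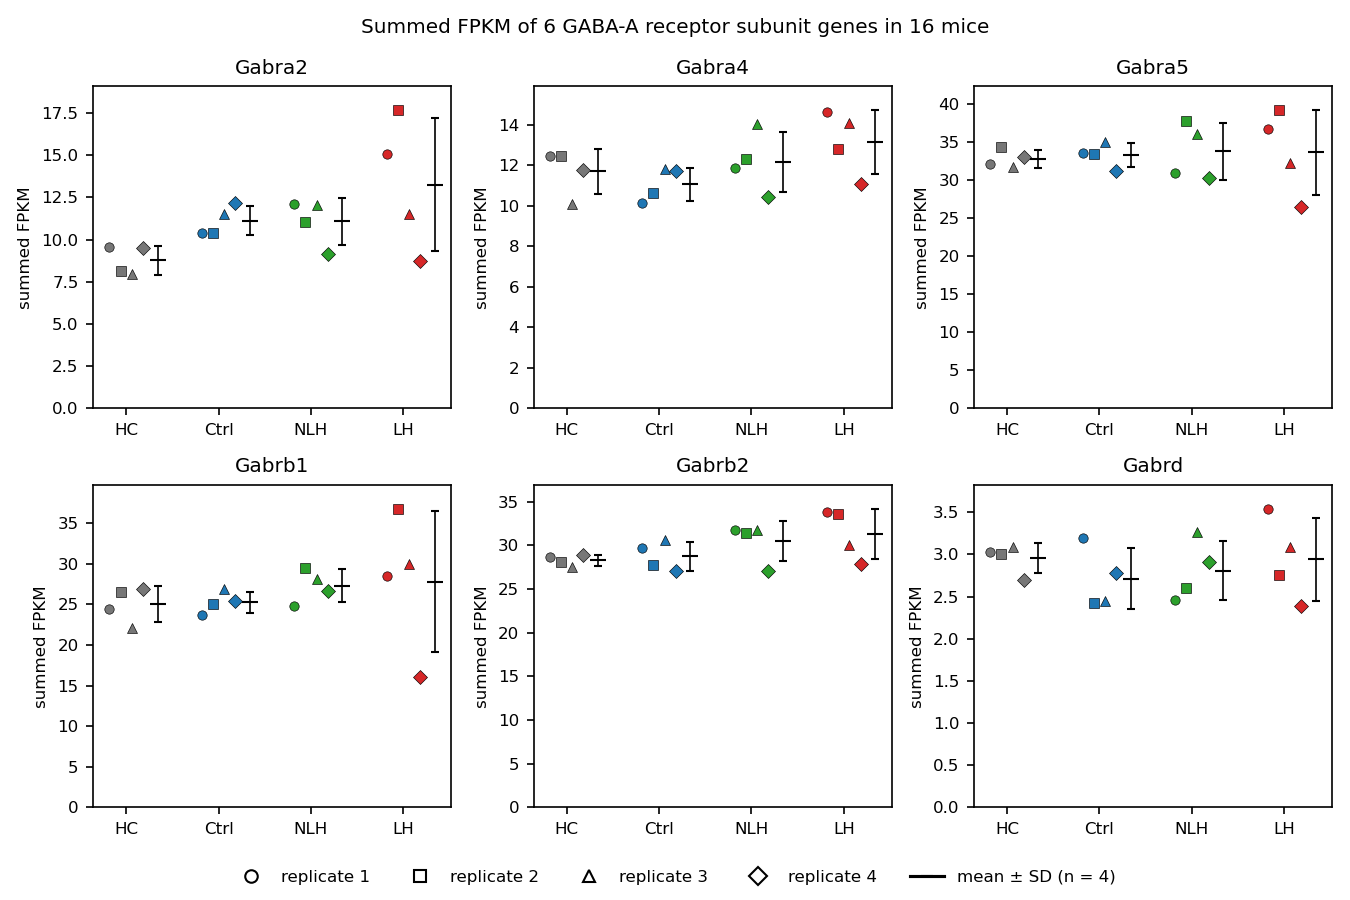
Summed FPKM (vertical axis, from 0) of 6 GABA-A receptor subunit genes in HC, Ctrl, NLH and LH mice, with 1 symbol per mouse by replicate number and the mean ± SD of 4 mice beside it. The 4 Ctrl mice lie above the 4 HC mice for Gabra2, and the LH mice are spread most widely for Gabra2, Gabra5 and Gabrb1.

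The wide spread between LH mice was shared by most genes in these libraries. Among 10436 genes whose summed FPKM averaged 1 or more, the median within-group SD on the log2(FPKM + 0.1) scale was lowest in Ctrl mice at 0.14, followed by 0.15 for HC mice, 0.20 for NLH mice and 0.36 for LH mice. In LH the SD was 0.45 for Gabra2 and 0.51 for Gabrb1, above this median. It was 0.25 for Gabra5, 0.23 for Gabrd, 0.18 for Gabra4 and 0.13 for Gabrb2, below it.

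Groups were compared on the gene level by limma on log2(summed FPKM + 0.1) over all 16 mice, with p adjusted by Benjamini-Hochberg over 18287 genes. Ctrl vs. HC asks what goes with handling, the shuttle box and the escape trials, which HC mice did not have. In Ctrl vs. HC, 0 of 6 members passed an adjusted p of 0.05 (0% of all genes) and 0 of 6 an unadjusted p of 0.05 (2.7% of all genes). Gabra2 had the largest difference, 0.34 on the log2 scale (SE 0.17, limma adjusted p = 1), from a mean of 8.78 ± 0.849 in HC to 11.1 ± 0.866 in Ctrl (SD, n = 4 mice each). It was the only member whose groups did not overlap, as was the case for 5.31% of all genes tested (two-sided p = 0.0286 by exact permutation, not adjusted for the 24 such comparisons and as small as 4 mice against 4 can give). The study's own parametric test of 2 groups on FPKM, at an unadjusted p of 0.05, called Gabra2 alone of the 6 members, and 8.5% of all genes. When all transcripts of the assembled locus were summed, those without a gene name included, the groups overlapped and the difference was 0.16 (SE 0.12). The other 5 members differed by between -0.13 and 0.02, each by less than 1 SE.

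NLH vs. Ctrl asks what goes with inescapable shock in mice that kept escaping. Again 0 of 6 members passed the adjusted threshold, against 0.00547% of all genes, and 0 of 6 an unadjusted p of 0.05 (5.59%). The study's test called 0 of 6 members (9.57% of all genes). The groups overlapped for 6 of 6 members, while 6.12% of all genes had no overlap. The differences ran from -0.01 for Gabra2 to 0.13 for Gabra4 (SE 0.17 and 0.12). That of Gabra4 was 0.05 with size factors, 0.06 without NLH replicate 3 and -0.26 over coding transcripts alone. Their median was 0.07, beside 0.06 over all genes.

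LH mice were set against both Ctrl and NLH mice. LH vs. Ctrl joins inescapable shock and helplessness, and only LH vs. NLH, with equal shocks, asks what goes with helplessness. In LH vs. Ctrl, 0 of 6 members passed the adjusted threshold (0% of all genes) and 0 of 6 an unadjusted p of 0.05 (11.5%), and the study's test called 0 of 6 (8.01%). On the sums of named transcripts the groups overlapped for 6 of 6 members, while 5.69% of all genes had no overlap. All 6 differences were above 0, except that Gabra5 was at -0.033 after scaling by size factors, with a median of 0.11 beside 0 over all genes. In the same comparison 6 of 6 interneuron markers were higher in LH (median 0.20) and 0 of 6 CA pyramidal markers were (median -0.20). So were 4 of 5 thalamic (median 0.39), 3 of 6 striatal (-0.02) and 2 of 4 oligodendrocyte markers (0.03). Of dentate granule cell markers 1 of 5 was higher (median -0.17), and of choroid plexus markers 0 of 5 (-0.38). The part of these lists in the differences of the members was not tested. The largest differences of members were 0.24 for Gabra4 (SE 0.12, limma adjusted p = 0.443) and 0.20 for Gabra2 (SE 0.17, limma adjusted p = 0.69). The difference of Gabra2 was 0.05 without LH replicate 2 and 0.39 without LH replicate 4. Without LH replicate 1 the Gabra4 difference was 0.19, that of Gabrb2 0.08 and that of Gabrd 0.02. Gabra4 was at 13.2 ± 1.57 in LH and 11.1 ± 0.818 in Ctrl (SD, n = 4 mice each). Its groups did not overlap on 2 sums that were added after the data were seen. The difference was 0.22 over all transcripts of the locus (SE 0.08, limma adjusted p = 0.245). It was 0.39 over coding transcripts alone (SE 0.15, limma adjusted p = 0.342). The share of all genes without overlap on such sums was not computed. Gabra5 was at 33.7 ± 5.60 in LH and 33.3 ± 1.58 in Ctrl, a difference of 0.0006 on the log2 scale (SE 0.11).

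Without LH replicates 3 and 4, the difference of Gabra2 in LH vs. Ctrl was 0.55 with a limma adjusted p of 0.0314. It was the only member to pass there, as did 5.41% of all genes. The other 5 members then lay between 0.19 and 0.36 above Ctrl, with limma adjusted p values of 0.0715 for Gabrb1, 0.105 for Gabrb2, 0.146 for Gabra4, 0.232 for Gabra5 and 0.443 for Gabrd. The LH mice left in that fit, replicates 1 and 2, had the largest size factors of all mice (1.16 and 1.2), and the part of library scaling in this difference was not tested.

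In LH vs. NLH, 0 of 6 members passed the adjusted threshold (0.0109% of all genes) and 0 of 6 an unadjusted p of 0.05 (7.54%), and the study's test called 0 of 6 (3.5%). The groups overlapped for 6 of 6 members, while 2.15% of all genes had no overlap. The differences ran from -0.03 for Gabrb1 (SE 0.18) to 0.21 for Gabra2 (SE 0.17). That of Gabra2 was 0.06 without LH replicate 2, 0.14 without LH replicate 1, 0.40 without LH replicate 4 and 0.56 without LH replicates 3 and 4 (limma adjusted p = 0.145). Gabra5 and Gabrb1 turned from below to above NLH without LH replicates 3 and 4, to 0.17 and 0.25, and Gabra4, Gabrb2 and Gabrd were at 0.18, 0.15 and 0.16. Without LH replicate 1, Gabrd turned to -0.03. None of these passed. A test over the 4 groups at once, limma's F, gave its smallest adjusted p of 0.477 for Gabra2, and 0 of 6 members passed (0.0766% of all genes). At an unadjusted p of 0.05, Gabra2 alone passed the F test, as did 9.96% of all genes. Without LH replicates 3 and 4 its adjusted p in the F test was 0.0152, in a fit where 4.36% of all genes passed.

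**Figure D2:**
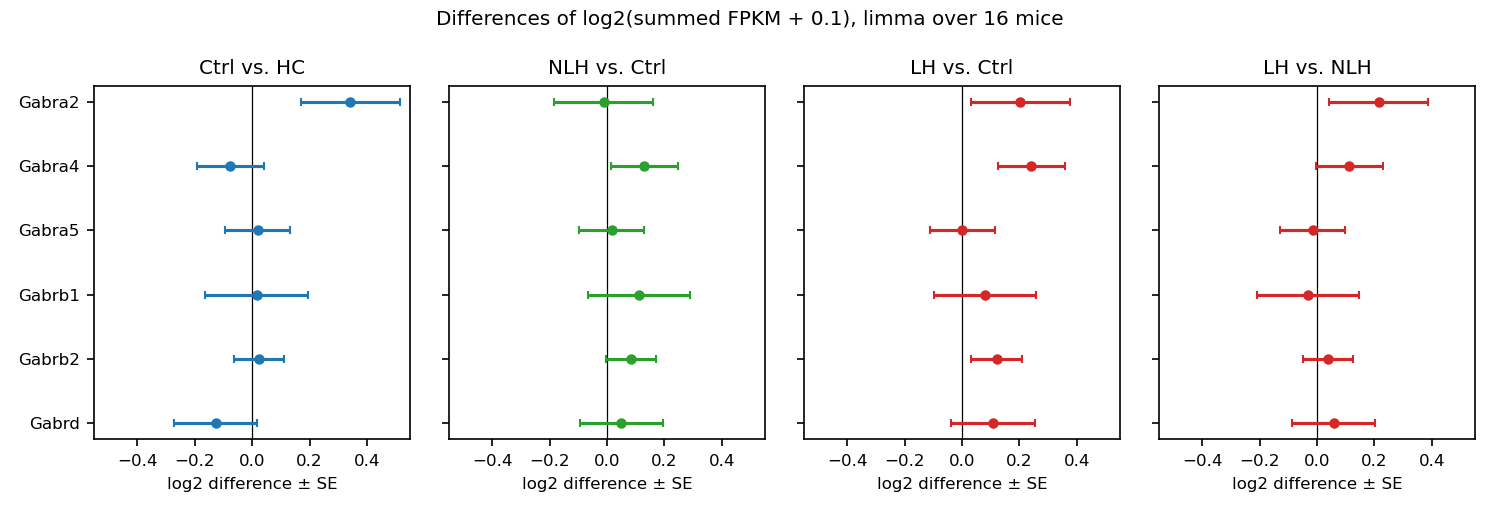
Differences of log2(summed FPKM + 0.1) between groups (horizontal axis, first group minus second) with their standard errors from limma over 16 mice, for 6 subunit genes in 4 comparisons. The largest difference is that of Gabra2 in Ctrl vs. HC, at 0.34.

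The sums of genes hide which transcripts they are made of. Of the 24 isoforms, GENCODE types 12 as protein coding, and the share of the gene sum that these held differed between the genes. It was 100% for Gabra5 and Gabrb1 in every mouse and averaged 87.1% for Gabrb2, 86.1% for Gabra4 and 80.1% for Gabrd. For Gabra2 it was only 25.4% on average. Transcripts of the assembly without a gene name added a further 45.6% of the summed FPKM at the Gabra2 locus on average, 32.3% at Gabra4, 27.9% at Gabrb1, 4.36% at Gabrb2, 3.17% at Gabra5 and 0% at Gabrd.

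On single isoforms, limma placed 0 of 24 members past an adjusted p of 0.05 in each comparison. Of all 80137 transcripts, 0.00374% passed in Ctrl vs. HC and 0.0125% in NLH vs. Ctrl. For LH mice, 0.0462% passed against Ctrl and 0.0412% against NLH. At an unadjusted p of 0.05, limma gave 1 of 24 in Ctrl vs. HC (3.45% of all transcripts), 1 in NLH vs. Ctrl (5.12%), 4 in LH vs. Ctrl (10.7%), of which 1 was higher in LH, and 6 in LH vs. NLH (8.72%), of which 3 were higher in LH. The study's test called 3, 3, 4 and 1 of the 24 isoforms in the same order, against 6.68%, 7.2%, 7.69% and 4.47% of all transcripts. Groups did not overlap for 2, 0, 3 and 0 of the 24, against 4.52%, 5.07%, 5.94% and 3.23% of all transcripts.

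Gabra2 was the gene with the most mixed isoforms. The highest was Gabra2-202 (ENSMUST00000197124.4), a transcript of 2628 bases typed as retained intron that covers the 3′ part of the gene, with a mean FPKM of 4.30 over 16 mice. The only coding isoform, Gabra2-203 of 5852 bases, had a mean of 2.85, and Gabra2-204, which lacks the 61 bases shown above, a mean of 2.47. A retained-intron transcript makes no receptor subunit, so by annotation the sum of Gabra2 is mostly RNA without a full reading frame.

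Gabra2-203 had the smallest limma p of the members in Ctrl vs. HC. Its FPKM was 1.62, 1.69, 1.52 and 2.17 in HC replicates 1 to 4 and 2.92, 2.84, 3.15 and 3.30 in Ctrl replicates 1 to 4. It was 3.87, 2.59, 3.56 and 2.37 in NLH and 4.28, 4.74, 2.50 and 2.56 in LH. All 12 mice that had gone through escape trials lay above all 4 HC mice. Between Ctrl and HC alone, 4.52% of all transcripts had no overlap. The share of transcripts with all 12 mice above HC was not computed. In Ctrl vs. HC the difference was 0.78 on the log2 scale (SE 0.22, limma adjusted p = 1 over all transcripts), a ratio of 1.72, and it was 0.72 to 0.88 with any 1 mouse left out. Its share of the Gabra2 sum was 19.95% ± 2.54 in the HC mice and higher in the others, at 27.4% ± 0.420 in Ctrl mice, 27.7% ± 3.77 in NLH mice and 26.6% ± 3.43 in LH mice (SD, n = 4 mice each). Between Ctrl, NLH and LH its differences were at most 0.15, under 1 SE, but without LH replicates 3 and 4 they were 0.55 against Ctrl (limma adjusted p = 0.207) and 0.56 against NLH (limma adjusted p = 0.348).

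Gabra2-204 went the other way in Ctrl vs. HC, with a difference of -0.32 (SE 0.33) that did not pass any test. Its FPKM was 2.24, 2.68, 2.02 and 2.23 in HC and 0.793, 2.25, 2.61 and 2.25 in Ctrl, and without Ctrl replicate 1 the difference was 0.05. In NLH it was 1.61, 3.34, 3.44 and 3.04, and in LH 2.89, 3.51, 2.82 and 1.75. Gabra2-202 was at 5.52 ± 0.963 in LH and 3.91 ± 1.13 in NLH (SD, n = 4 mice each), 0.52 higher on the log2 scale (SE 0.20, limma adjusted p = 0.501), and 0.62 higher without LH replicates 3 and 4 (limma adjusted p = 0.379).

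Gabra4 was made up mostly of Gabra4-201, the coding isoform of 4108 bases, with a mean of 9.63 FPKM and 80.3% of the sum. Its FPKM was 10.2, 8.45, 8.70 and 9.24 in HC, 9.80, 8.88, 10.0 and 9.92 in Ctrl, 11.5, 6.70, 7.45 and 6.74 in NLH and 14.2, 12.1, 12.4 and 7.92 in LH, each in the order of replicates 1 to 4. The NLH replicates 2 to 4 were the lowest mice of all, and the LH replicates 1 to 3 the highest. In LH vs. NLH the difference was 0.53 (SE 0.18, limma adjusted p = 0.441), and 0.72 with a limma adjusted p of 0.203 without LH replicates 3 and 4.

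Gabra4-202, the isoform without the 68 bases of the first exon, showed the opposite order. Its FPKM was 1.00, 3.07, 0.730 and 1.84 in HC replicates 1 to 4 and 0.165, 1.14, 1.40 and 0.725 in Ctrl. In NLH replicates 2 to 4 it was 5.08, 5.33 and 3.02, while NLH replicate 1 was listed at effectively 0 (1.38e-22). LH replicate 2 was at 0.0831, and LH replicates 1, 3 and 4 were listed at no more than 5.64e-16. The same mouse that lacked this isoform among the NLH mice had the highest Gabra4-201 of that group. All 1765 bases of Gabra4-202 are shared with Gabra4-201, so most of its fragments fit both isoforms. LH replicates 3 and 4 are the libraries with many transcripts at 0. How fragments were divided between the isoforms, and the part of such zeros, was not tested.

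In LH vs. NLH, Gabra4-202 differed by -3.89 on the log2(FPKM + 0.1) scale (SE 1.02, limma adjusted p = 0.28). Without NLH replicate 1 the difference was -5.26 with a limma adjusted p of 0.00198, in a fit where 0.302% of all transcripts passed. Without LH replicates 3 and 4 it was -3.67 (limma adjusted p = 0.368). In LH vs. Ctrl it was -2.78 (SE 1.02, limma adjusted p = 0.359), and all LH mice lay below all Ctrl mice. That difference was -2.56 without LH replicates 3 and 4 (limma adjusted p = 0.429). The size of these values rests on the 0.1 added to FPKM. With 0.01 or 1 added, the LH vs. NLH difference was -5.77 or -1.79, and neither passed.

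As a share of Gabra4-201 and Gabra4-202 together, Gabra4-202 made up between 7.74% and 26.7% in HC and between 1.65% and 12.3% in Ctrl. It made up 43.1%, 41.7% and 31.0% in NLH replicates 2 to 4, but effectively 0 in NLH replicate 1 (1.21e-21%), and at most 0.683% in LH. Summed over coding isoforms only, a choice made after the data were seen, Gabra4 was at 13.1 in LH, 8.49 in NLH and 9.93 in Ctrl on average. The coding sum differed by 0.65 in LH vs. NLH (SE 0.15, limma adjusted p = 0.345) and by 0.39 in LH vs. Ctrl (SE 0.15, limma adjusted p = 0.342).

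Gabra5 was nearly a single transcript in these data. Gabra5-203 (ENSMUST00000206734.1) held 84.5% of the sum with a mean of 28.3 FPKM, and Gabra5-202 and Gabra5-201 (ENSMUST00000068456.7) held 10.0% and 5.43%. All 3 share the same coding sequence of 1389 bases and differ in their untranslated exons at the 5′ end. Gabra5-201 was at 1.70, 1.26, 1.34 and 1.04 in HC and 1.91, 1.96, 1.74 and 2.12 in Ctrl, without overlap (difference 0.52, SE 0.29, limma adjusted p = 1). In NLH it was 2.05, 2.68, 2.33 and 1.75, and in LH 2.47, 2.14, 0.712 and 1.86. LH replicate 3, the lowest of all mice, is 1 of the libraries with many transcripts at 0.

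Gabrb1 was divided between 2 isoforms of very different length. Gabrb1-202 (ENSMUST00000199967.4) of 799 bases, an incomplete coding transcript with 679 coding bases, held 50.1% of the sum, and the full-length Gabrb1-201 of 13737 bases held 49.9%. Because FPKM is divided by length, a few fragments on the short isoform weigh as much as many on the long one. Gabrb1-202 was at 13.4 ± 1.88 in the HC mice, 13.1 ± 0.903 in the Ctrl mice, 13.8 ± 1.86 in the NLH mice and 13.4 ± 7.50 in the LH mice (SD, n = 4 each), with 11.2, 21.6, 16.7 and 4.12 in LH replicates 1 to 4. Gabrb1-201, named here after its values were seen, was at 17.3, 15.2, 13.3 and 11.9 in the same mice. The low Gabrb1 sum of LH replicate 4 thus lay mostly in the short isoform.

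Gabrb2 had 2 coding isoforms, a short and a long form. The short form Gabrb2-201 held 78.9% of the sum, with an FPKM of 21.5, 22.7, 22.0 and 21.9 in HC replicates 1 to 4 and 21.8, 20.6, 22.0 and 19.7 in Ctrl. It was 26.2, 23.5, 25.8 and 21.7 in NLH and 30.4, 27.2, 24.8 and 23.8 in LH. Every LH mouse lay above every Ctrl and every HC mouse. In LH vs. Ctrl 5.94% of all transcripts had no overlap, and the share set apart from both groups was not computed. These FPKM are not scaled between mice, and LH replicates 1 and 2 had size factors of 1.16 and 1.2. Whether the separation holds after scaling was not tested. In LH vs. Ctrl the difference was 0.33 (SE 0.09, limma adjusted p = 0.196), a ratio of 1.26, and it was 0.26 to 0.38 with any 1 mouse left out. Without LH replicates 3 and 4 it was 0.45 with a limma adjusted p of 0.0448, in a fit where 0.413% of all transcripts passed. In NLH vs. Ctrl it was 0.20 (SE 0.09, limma adjusted p = 0.92), and in LH vs. NLH 0.13 (SE 0.09, limma adjusted p = 0.679), with overlapping groups. The LH vs. NLH difference was 0.06 to 0.18 with any 1 mouse left out. Without LH replicates 3 and 4 it was 0.25 (limma adjusted p = 0.337).

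The long form Gabrb2-205, with the exon of 114 bases shown above, was at 3.12, 2.13, 1.40 and 2.83 FPKM in HC replicates 1 to 4 and 2.79, 4.02, 4.17 and 4.21 in Ctrl. In NLH it was 1.14, 4.75, 3.17 and 1.74. In LH it was 3.21 in replicate 2 and no more than 9.55e-05 in replicates 1, 3 and 4. It was thus above 1 FPKM in every mouse outside LH and in 1 of 4 LH mice. LH replicates 3 and 4 are the libraries with many transcripts at 0, and LH replicate 1 is not among them. The part of such zeros in this result was not tested.

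In LH vs. Ctrl, Gabrb2-205 differed by -4.004 on the log2(FPKM + 0.1) scale (SE 0.88, limma adjusted p = 0.132), and in LH vs. NLH by -3.35 (SE 0.88, limma adjusted p = 0.282). Both calls turned on LH replicate 2. Without it, the differences were -5.27 and -4.62 with limma adjusted p values of 5.3e-05 and 0.000221, in fits where 0.387% and 0.188% of all transcripts passed. Without LH replicates 3 and 4 they were -2.74 and -2.09, and neither passed (limma adjusted p = 0.227 and 0.466). With 0.01 or 1 added to FPKM, the LH vs. Ctrl difference was -6.47 or -1.73, and neither passed.

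As a share of both coding forms together, the long form made up 9.67% ± 2.99 in the HC mice, 15.3% ± 2.74 in the Ctrl mice and 9.84% ± 5.41 in the NLH mice (SD, n = 4 each). In LH it made up 10.5% in replicate 2 and at most 0.000314% in the other mice. GENCODE lists Gabrb2-205 without untranslated regions, with 1539 bases in all against 3989 for Gabrb2-201. How fragments were divided between the forms was not tested. The summed FPKM of Gabrb2 in LH vs. Ctrl differed by 0.12 (SE 0.09).

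Noncoding transcripts of Gabrb2 were minor. Gabrb2-204, named here after its values were seen, is a processed transcript that held 10.3% of the sum and was at 3.63 ± 0.989 in LH and 2.60 ± 0.279 in NLH (SD, n = 4 mice each). Gabrb2-202 (ENSMUST00000136050.7), of the same type, held 2.43%, and its difference in Ctrl vs. HC was -1.35 (SE 0.77, limma adjusted p = 1). Gabrd was mainly Gabrd-201 (ENSMUST00000030925.2), its only coding isoform, with a mean of 2.28 FPKM. It was at 2.56 ± 0.509 in LH and 2.07 ± 0.143 in Ctrl (SD, n = 4 mice each), a difference of 0.28 (SE 0.14, limma adjusted p = 0.494), which was 0.29 without LH replicates 3 and 4 and 0.18 without LH replicate 1.

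**Figure D3:**
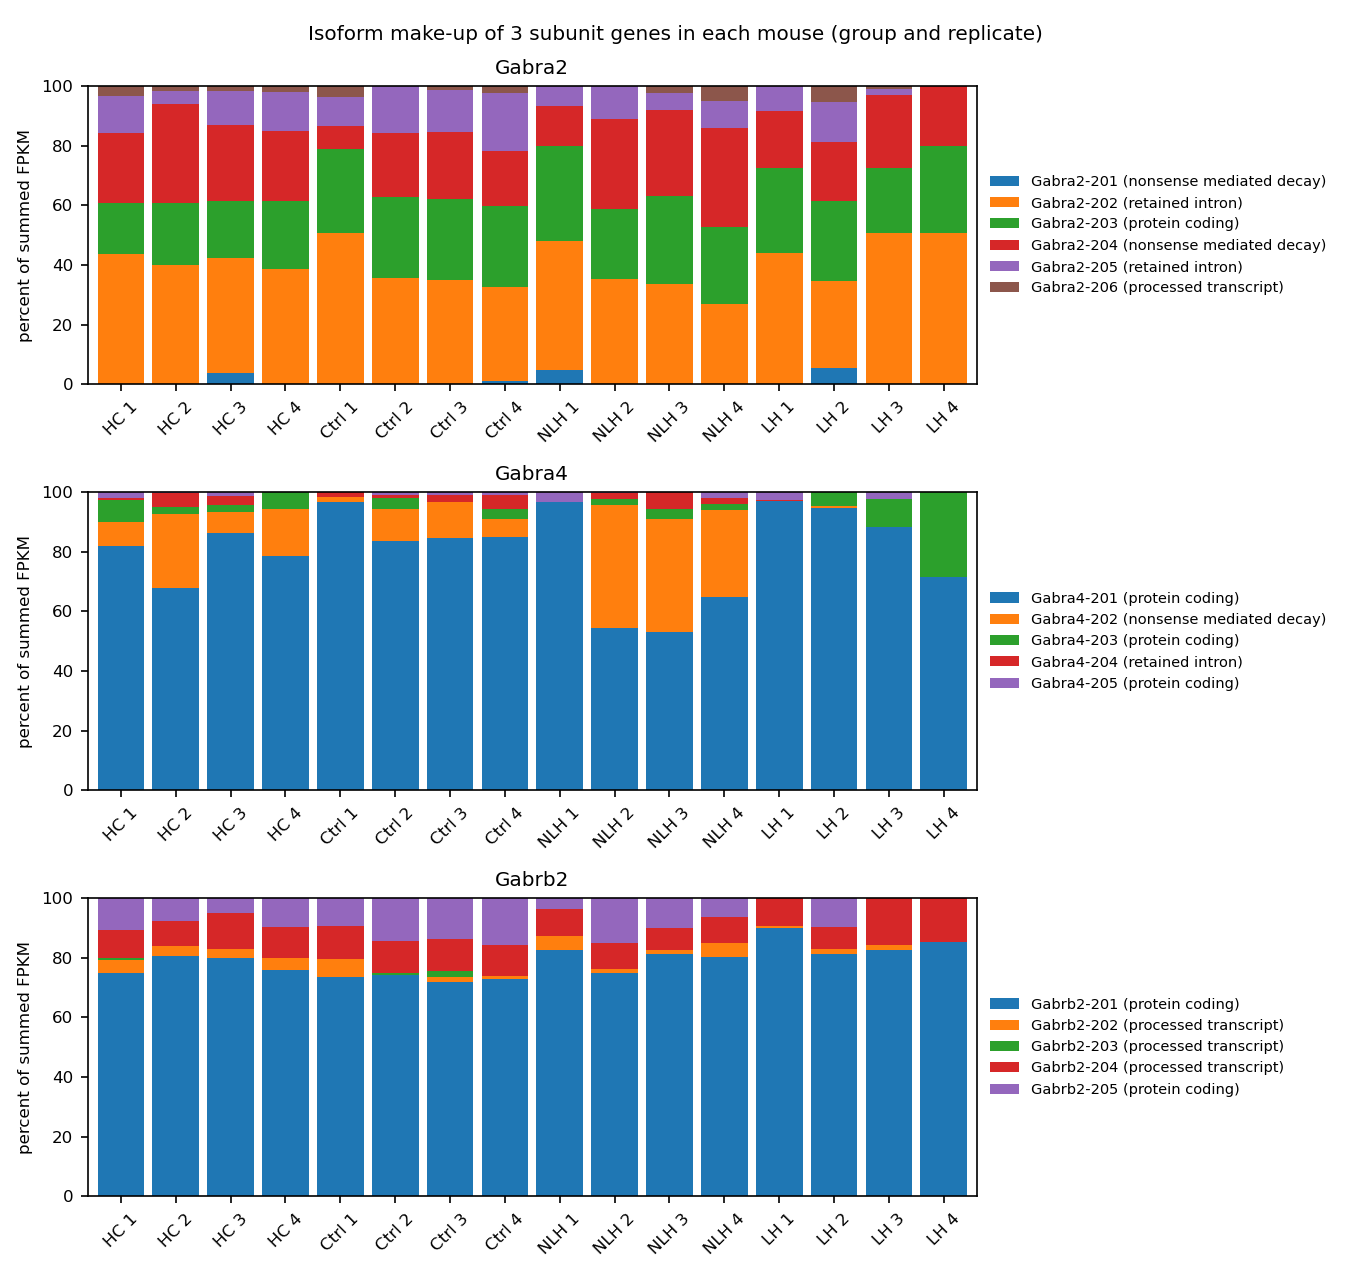
Share of each isoform in the summed FPKM of Gabra2, Gabra4 and Gabrb2 (vertical axis, percent), with 1 bar per mouse and the GENCODE type of each isoform in the key. Gabra4-202 has its highest shares in NLH replicates 2 to 4, below those of Gabra4-201, and next to none in LH, and Gabrb2-205 is missing from the bars of LH replicates 1, 3 and 4.

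**Figure D4:**
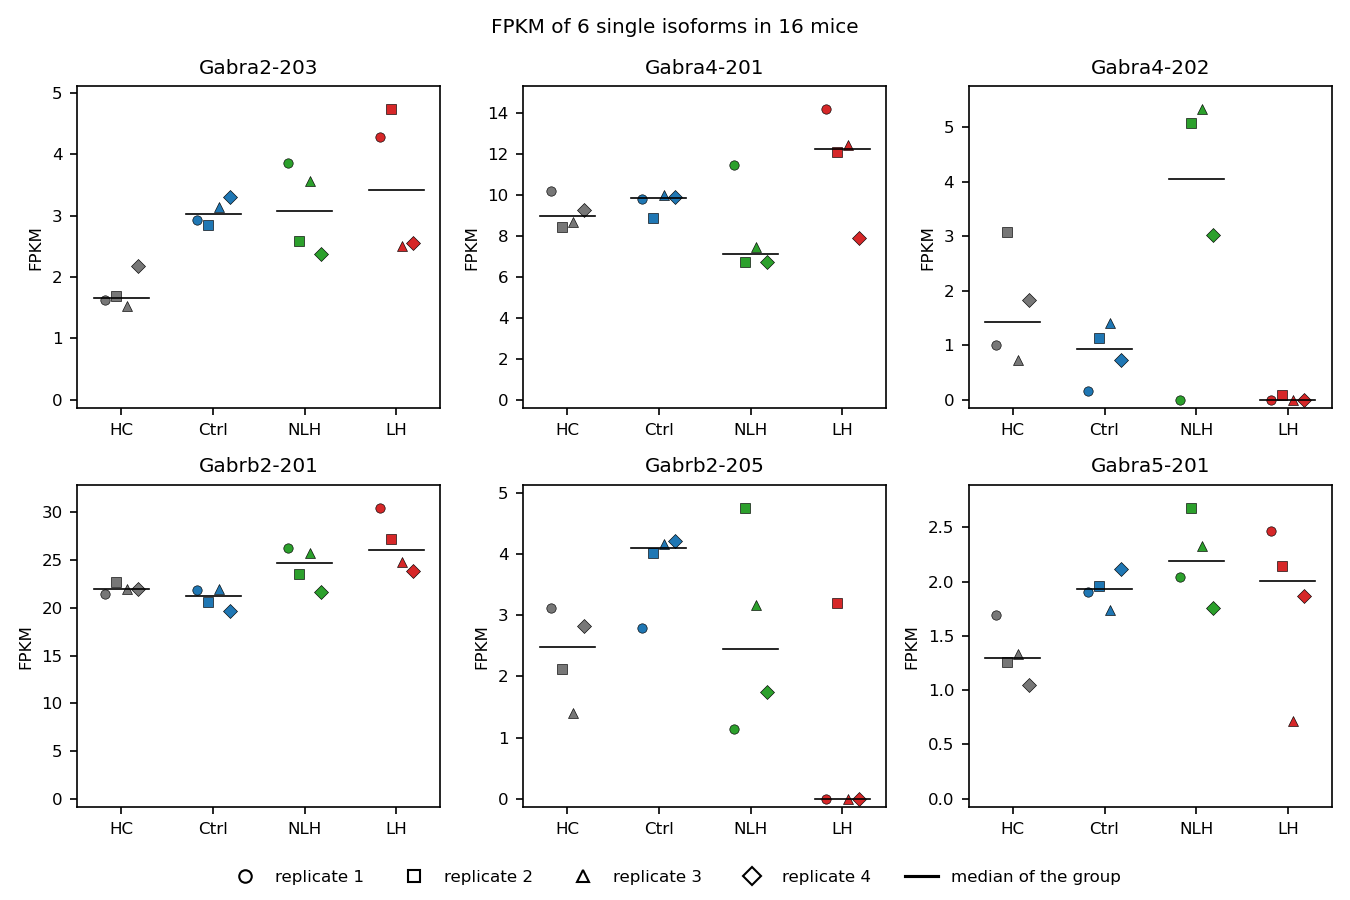
FPKM of 6 single isoforms (vertical axis) in HC, Ctrl, NLH and LH mice, with 1 symbol per mouse by replicate number and a line at the median of each group. The 4 HC mice lie below all others for Gabra2-203, the 4 LH mice lie above the Ctrl mice for Gabrb2-201, and 3 of 4 LH mice lie at 0 for Gabrb2-205.

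The balance of isoforms within a gene was tested as the log2 ratio of the main isoform, that with the highest mean, to the sum of the others. Limma placed 0 of 6 members past an adjusted p of 0.05 in each comparison, against 0.012% of 8347 genes in Ctrl vs. HC, 0.024% in NLH vs. Ctrl, 0.0719% for LH against Ctrl and 0.024% for LH against NLH. At an unadjusted p of 0.05 there were 2 of 6 in LH vs. Ctrl (13.1% of genes), both with the main isoform higher against the rest in LH. Elsewhere there were 0 of 6, beside 3.07%, 5.32% and 11.6% of genes in the other comparisons. The 2 genes were Gabrb2, with a difference of 1.05 (SE 0.28, limma adjusted p = 0.183), and Gabrd, with 0.97 (SE 0.37, limma adjusted p = 0.298). The share of Gabrb2-201 in the Gabrb2 sum was lowest in the Ctrl mice at 73.2% ± 0.962, against 77.9% ± 2.83 in HC mice, 79.7% ± 3.39 in NLH mice and 84.8% ± 3.90 in LH mice (SD, n = 4 each). The Ctrl mice lay below the mice of each other group without overlap, while 4.35%, 6.02% and 6.41% of genes had no overlap in these comparisons. In LH vs. NLH, 0 of 6 main isoform shares had no overlap, against 3.87% of genes.

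Of the 7 other genes named Gabr, 0 passed the adjusted threshold in any comparison by limma. At an unadjusted p of 0.05 there was 1 of 7, Gabrg1 (a gamma subunit), higher in LH than in Ctrl, where 11.5% of all genes passed. Gabrg1 was at 3.89 ± 0.751 in LH and 3.03 ± 0.293 in Ctrl (SD, n = 4 mice each), a difference of 0.33 (SE 0.15, limma adjusted p = 0.387). Gabrg3 was at 3.36 ± 0.766 in LH and 4.02 ± 0.520 in NLH (difference -0.27, SE 0.15). The rho subunit genes were low, with Gabrr2 at 0.388 ± 0.106 in Ctrl and 0.212 ± 0.0826 in HC. Gabrr1 was between 0.0277 and 0.0635 in Ctrl, and in LH it was 0.103 in replicate 1 and listed at 0 in the other mice.

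A list of 27 genes of the GABA pathway was also counted, of which 26 were measured. It covered GABA synthesis, breakdown and uptake, the anchoring and transport of its receptors, GABA-B receptors and chloride cotransporters. By limma, 0 of 26 passed the adjusted threshold in any comparison. At an unadjusted p of 0.05, there was 1 higher in Ctrl vs. HC, 1 lower in NLH vs. Ctrl, 4 higher in LH than in Ctrl, and a single one higher in LH than in NLH. Over all genes, 2.7%, 5.59%, 11.5% and 7.54% passed in these comparisons. Trak2, an adaptor for transport along microtubules that binds GABA-A receptor beta subunits, was at 19.8 ± 1.46 in LH, 17.1 ± 0.553 in NLH and 15.7 ± 0.200 in Ctrl (SD, n = 4 mice each). Its difference was 0.33 in LH vs. Ctrl (SE 0.08, limma adjusted p = 0.139), 0.20 in LH vs. NLH (SE 0.08, limma adjusted p = 0.595) and 0.13 in Ctrl vs. HC (SE 0.08). Shisa7, an auxiliary protein of GABA-A receptors, was at 15.3 ± 0.913 in Ctrl and 12.9 ± 0.714 in HC (difference 0.25, SE 0.10, limma adjusted p = 1), and at 13.7 ± 1.09 in LH and 15.2 ± 1.38 in NLH.

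Gabarapl2, of the GABARAP family of trafficking and autophagy proteins, was at 22.6 ± 3.04 in NLH and 29.5 ± 2.63 in Ctrl (difference -0.39, SE 0.14, limma adjusted p = 0.712). Ubqln1, which stabilizes receptor subunits inside the cell, was at 20.1 ± 3.26 in LH, 19.04 ± 1.60 in NLH and 16.6 ± 0.804 in Ctrl. Plcl1, which takes part in receptor trafficking, was at 7.23 ± 0.266 in LH, 6.54 ± 1.06 in NLH and 6.03 ± 0.265 in Ctrl. Gphn, the scaffold protein gephyrin, was at 6.86 ± 1.26 in NLH and 5.78 ± 0.398 in Ctrl, and Lhfpl4, which links receptors to neuroligin, at 6.71 ± 0.674 in Ctrl and 7.53 ± 0.240 in HC. None of these 5 passed the adjusted threshold in limma.

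Correlations between the subunit genes over mice depended on how FPKM was scaled. Pearson's r of log2(summed FPKM + 0.1) over 16 mice was computed for all 15 pairs of the 6 genes. It ran from 0.10 to 0.84 with a median of 0.58, and 9 of 15 pairs had an adjusted permutation p under 0.05 (Benjamini-Hochberg over 15 pairs, two-sided, 100000 permutations). The highest were Gabra5 and Gabrb1 (r = 0.84, Spearman's rho = 0.67, permutation p = 0.00018 and 0.00538, adjusted p = 0.00135 and 0.0167) and Gabra2 and Gabrb2 (r = 0.80, rho = 0.67, permutation p = 0.00012 and 0.00557, adjusted p = 0.00135 and 0.0167). The 5 pairs with Gabrd had r from 0.10 to 0.39, and none passed. Pairs of other genes were not computed, so the 9 pairs have no background to be read against. All genes of a mouse share its library.

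After division of each mouse by its size factor, the 15 values of r ran from -0.33 to 0.56 with a median of 0.15, and 0 of 15 passed the permutation test. For Gabra5 and Gabrb1, r was then 0.24, and for Gabra2 and Gabrb2 0.15. The summed FPKM of 5 of the genes followed the size factor itself, with r from 0.55 for Gabra4 to 0.88 for Gabra5 over 16 mice, and Gabrd did so least (r = 0.27). Without the 2 mice farthest from the median of the first gene of a pair, r ran from -0.14 to 0.66 with a median of 0.47, and 0 of 15 passed. The median r was 0.60 without LH replicates 3 and 4, and 10 of 15 passed. With group means removed, 3 of 15 pairs passed, and r was 0.84 for Gabra5 and Gabrb1.

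**Figure D5:**
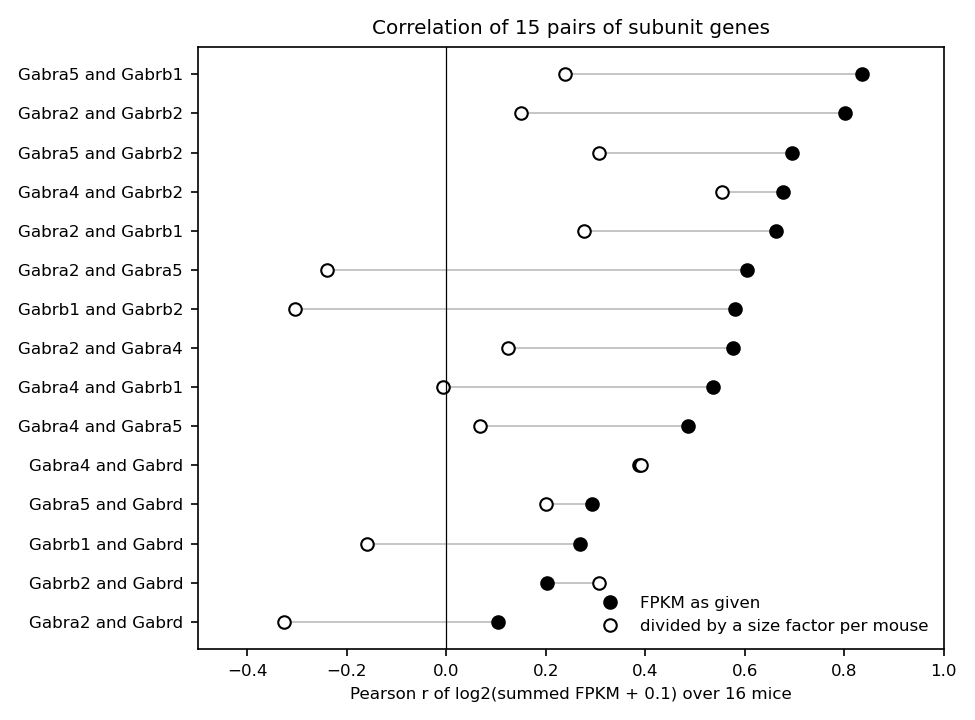
Pearson's r over 16 mice (horizontal axis) for 15 pairs of subunit genes, from FPKM as given (filled) and after division by a size factor per mouse (open). The median r is 0.58 for the filled and 0.15 for the open symbols.

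Among the 10436 genes with a mean summed FPKM of at least 1, those most like each member over the 16 mice were sought by Pearson's r, given as a description. They were Tob1 (r = 0.95) and Amd1 (0.95) for Gabra2, Mrpl34 (0.88) and Rundc3b (0.87) for Gabra4, and Vti1a (0.94) and Chst2 (0.93) for Gabra5. They were Dip2b (0.94) and Gstk1 (0.94) for Gabrb1, Plppr4 (0.91) and Chl1 (0.91) for Gabrb2, and Cemip (0.75) and Zfp964 (0.74) for Gabrd. After division by size factors, r was 0.90 for Gabra2 and Tob1 and 0.85 for Gabra4 and Rundc3b, but 0.35 for Gabrb2 and Chl1 and 0.45 for Gabra5 and Chst2.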

How the data were processed

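Hippocampal RNA of 16 mice was sequenced by the authors as 1 total RNA library per mouse, and the deposited values are FPKM per transcript. The paper's methods name HISAT2 and the submitters' processing notes name STAR 2.42a as the aligner. Both give mm10, assembly and merging over all samples with StringTie 1.2.3, and quantification with Cufflinks. Values are deposited unlogged, not scaled between mice, and without read counts. Fragments that fit several isoforms are divided among them by an estimate, so an isoform at 0 can be an outcome of that estimate. Authors' classes follow the gene, while isoform types, exons, positions and sequences here come from GENCODE vM21.

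Groups follow the labels. FPKM was summed over each gene name. Limma 3.58.1 (R 4.3.3, with trend and robust options) was fitted to log2(FPKM + 0.1) of 16 mice with 4 group means, on 18287 genes and 80137 transcripts, and to the isoform balance of 8347 genes with at least 2 isoforms and a mean of at least 1. Benjamini-Hochberg adjusted p under 0.05 was the threshold. Single genes were also compared by exact permutation tests. The design had listed 21 pairs of 7 members for correlation, of which 15 could be computed. To estimate depth, the steps between low FPKM values were read at 635 to 819 loci per mouse that hold 1 transcript of over 2000 bases, assuming fragments of 200 bases. Between 47.5% and 56.4% of their values lay within 0.1 of a whole fragment (20% by chance), so whole reads were not recovered and no counting interval is given. Python 3.11.15 with numpy 2.4.6, pandas 2.3.3, scipy 1.17.1 and matplotlib 3.10.9 did the rest.

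Members, lists and tests were chosen with earlier results of these data known. Named were all members, the isoform with the highest mean of each and the 3 with the smallest limma p and a mean of at least 0.5 per comparison, the 3 genes with the smallest limma p per comparison of the other Gabr genes and of the GABA list, and the 2 genes most like each member. Isoforms marked as such were named after their values were seen. Values of some genes that this rule names are not reported here. Lists of markers covered dentate granule cells, CA pyramidal cells, interneurons, striatum, thalamus, choroid plexus and oligodendrocytes. Alternatives were 0.01 or 1 added before the logarithm, a mean of at least 1, median-ratio size factors, the 2 groups of a comparison alone, a replicate block, each mouse left out, LH replicates 3 and 4 left out, the study's Student test (2 groups, unlogged FPKM and unadjusted p together), an unadjusted p in limma, and Ensembl transcripts only. Sums over coding transcripts or over the whole assembled locus were added after the data were seen.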

Additional observations from a re-analysis of the deposited data

Results flagged for a closer look

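In 6 of 72 groups of 4 mice examined, over 6 gene sums and 12 named isoforms, 1 mouse lay far from the other 3 by Dixon's criterion, where chance flags about 1 in 20 groups (3.6 of 72). The Gabrb2 sum of NLH replicate 4 was 27.0 FPKM, against 31.4 to 31.8 in the other NLH mice. Gabra4-201 of NLH replicate 1 was 11.5, against 6.70 to 7.45 in the other NLH mice. Gabrb2-205 of Ctrl replicate 1 was 2.79, against 4.02 to 4.21 in the other Ctrl mice. Gabrb2-205 of LH replicate 2 was 3.21, against at most 9.55e-05 in the other LH mice. Gabra4-202 of LH replicate 2 was 0.0831, against at most 5.64e-16 in the other LH mice. Gabrd-201 of HC replicate 4 was 2.01, against 2.37 to 2.42 in the other HC mice.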

How the results depend on the processing

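The numbers of members past the adjusted limma threshold, 0 on gene sums, on isoforms and on isoform balance in each comparison, stayed 0 with 0.01 or 1 added and with the 2 groups of a comparison alone. Those on gene sums and isoforms also stayed 0 with a mean of at least 1 and with size factors, and those on gene sums with Ensembl transcripts only. Exceptions follow. On gene sums, the study's test gave 1 in Ctrl vs. HC, and leaving out LH replicates 3 and 4 gave 1 in LH vs. Ctrl and 1 in the F test, which also had 1 at an unadjusted p. On isoforms, the study's test gave 3, 3, 4 and 1 and an unadjusted p gave 1, 1, 4 and 6 in Ctrl vs. HC, NLH vs. Ctrl, LH vs. Ctrl and LH vs. NLH. Without LH replicates 3 and 4 there was 1 isoform in LH vs. Ctrl. With 1 mouse left out there were 0 to 1 isoforms in LH vs. Ctrl (1 without LH replicate 2) and 0 to 1 in LH vs. NLH (1 without LH replicate 2 or NLH replicate 1). Isoform balance had 2 in LH vs. Ctrl at an unadjusted p. Of 15 correlations, 9 passed as given, 10 without LH replicates 3 and 4, 3 with group means removed, 0 with size factors and 0 without the 2 mice farthest from the median. Differences changed sign with size factors in Ctrl vs. HC for Gabra5 (-0.0080), Gabrb1 (-0.013) and Gabrb2 (-0.0050), in NLH vs. Ctrl for Gabra5 (-0.062) and Gabrd (-0.026), in LH vs. Ctrl for Gabra5 (-0.033) and Gabra5-203 (0.031), and in LH vs. NLH for Gabra5 (0.029), Gabrb1 (0.013), Gabra2-204 (0.070) and Gabra5-203 (0.10). They did so without LH replicates 3 and 4 in LH vs. Ctrl for Gabra5-201 (0.24), Gabrb2-202 (0.20), Gabrb1-202 (0.26) and Gabra5-203 (0.19), and in LH vs. NLH for Gabra5 (0.17), Gabrb1 (0.25), Gabra5-201 (0.076), Gabra2-204 (0.21), Gabrb1-202 (0.18) and Gabra5-203 (0.23). Summing coding transcripts turned the sign in Ctrl vs. HC for Gabra4 (0.026), and in NLH vs. Ctrl for Gabra4 (-0.26), and summing all transcripts of the locus in NLH vs. Ctrl for Gabra2 (0.064), in LH vs. Ctrl for Gabra5 (-0.0045), and in LH vs. NLH for Gabrb1 (0.031). Leaving out 1 mouse in turn moved across 0 the differences in Ctrl vs. HC for Gabra5 (-0.0051 to 0.051), Gabrb1 (-0.042 to 0.052), Gabrb2 (-0.0069 to 0.052), Gabra2-204 (-0.48 to 0.050), Gabrb1-202 (-0.099 to 0.036) and Gabra5-203 (-0.035 to 0.026), in NLH vs. Ctrl for Gabra2 (-0.057 to 0.077), Gabra5 (-0.041 to 0.067), Gabrd (-0.023 to 0.13), Gabra2-202 (-0.29 to 0.060), Gabra2-203 (-0.12 to 0.11) and Gabra5-203 (-0.094 to 0.051), in LH vs. Ctrl for Gabra5 (-0.078 to 0.11), Gabrb1 (-0.075 to 0.32), Gabra5-201 (-0.41 to 0.15), Gabrb2-202 (-1.03 to 0.37), Gabra2-203 (-0.013 to 0.28), Gabrb1-202 (-0.50 to 0.29) and Gabra5-203 (-0.15 to 0.11), and in LH vs. NLH for Gabra5 (-0.094 to 0.095), Gabrb1 (-0.19 to 0.21), Gabrb2 (-0.019 to 0.092), Gabrd (-0.033 to 0.15), Gabra2-203 (-0.0070 to 0.29), Gabra2-204 (-0.29 to 0.15), Gabrb1-202 (-0.57 to 0.22) and Gabra5-203 (-0.12 to 0.14). The cause of these changes was not tested. Deviations of same-numbered mice had a median r of -0.023 over 24 pairs of mice (-0.099 to 0.138). Beside this, the median was 0.0035 over 72 pairs with other numbers (-0.161 to 0.146). The pairs share mice, so these values cannot decide whether replicate numbers pair the mice weakly. With the replicate block, 0 members were called in each comparison. Cufflinks divides fragments among isoforms by an estimate, and no read counts were used here, so that the counting error of a single isoform is unknown.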
